A study of Neurospora crassa with 16 samples.

Results

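The glycosyltransferases of the filamentous fungus Neurospora crassa were followed here as the 73 of 9730 genes whose CAZy entry in the deposited table held a glycosyltransferase (GT) family with a number and no glycoside hydrolase family. They fell into 31 families, of which GT2 (10 genes), GT1 (6) and GT4 (6) were the most populous. RNA had been measured in mycelia of a wild type (WT) and of a mutant whose label names a deletion of the serine/threonine kinase gene stk-12. Conidia of each strain had been grown in batch culture under constant light, with Avicel, a crystalline cellulose, as the carbon source. Harvests at 12h, 1d, 3d and 5d gave 8 groups of genotype and time with 2 libraries each, 16 libraries in all. The labels do not say that the libraries of a group came from separate cultures, so the spread that p-values measure is the one between these samples and may be technical in part.

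Glycosyltransferases move a sugar from an activated donor, a nucleotide sugar or a dolichol-linked sugar, onto a lipid, a protein or a growing polysaccharide. In filamentous fungi they make the chitin and beta-1,3-glucan of the cell wall at the plasma membrane. In the endoplasmic reticulum and Golgi they build the N-glycans, O-linked mannose chains and GPI anchors of secreted and wall proteins, which include the enzymes that a cellulose-grown fungus exports. Others make and break glycogen and trehalose, the reserve carbohydrates of hyphae and conidia.

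By family and product name the members were placed in classes of 5 chitin synthases, 1 beta-1,3-glucan synthase, 10 genes of N-glycan assembly and transfer, 1 of glycoprotein quality control, 3 protein O-mannosyltransferases, 15 Golgi mannosyltransferases, 4 of GPI anchor assembly, 3 of glycogen, 4 of trehalose and 3 of lipid glycosylation, with 24 left unclassified. The filter on low counts passed 72 of them, each with at least 1 read in every library. The remaining member, NCU09875 of family GT2, had 7 reads over all libraries and was not tested. Per gene length, the members were well expressed: their median level was 24.8 RPKM (reads scaled by gene length and library total, averaged over 16 libraries) against 15.1 RPKM for all genes, and 51 members stood above the median gene. The most abundant on that scale were gt2-2 (415 RPKM), gnn (325), NCU07027 (252), gt20-2 (175) and gsy-1 (171), and among the tested members the lowest was NCU04029 (1.06 RPKM). At 12h the members together took 0.829% ± 0.0238 (SD, n = 2) of the gene reads of WT, and at the 3 later times 1.02% ± 0.00103, 1.253% ± 0.0173 and 1.08% ± 0.0510. The mutant gave 0.863% ± 0.00128, 1.09% ± 0.0108, 1.28% ± 0.0203 and 1.46% ± 0.0162 at the same times. At 5d every mutant library was above every WT library in that share, which is taken of library totals. The unclassified members, gt2-2 among them, took 0.170% in WT and 0.350% in the mutant at 5d. At that time gt2-2 alone had 8740 and 9267 of 15913067 and 15309632 gene reads in the WT libraries. In the mutant libraries it had 44215 and 53061 of 18336221 and 22731924. The share of this class therefore does not describe its other members. The trehalose class took 0.157% in WT and 0.288% in the mutant at 5d. The N-glycan class took 0.0810% in WT and 0.0690% in the mutant at 5d, and the lipid glycosylation class 0.0237 and 0.0208%. In both classes the libraries of the strains did not overlap. Mean shares of the beta-1,3-glucan synthase and of the GPI anchor class were also lower in the mutant at 5d, but their libraries overlapped. 

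Gene reads per library ran from 14946389 to 26466759. The levels below are CPM, counts scaled by TMM library size, and serve to compare libraries for one gene, not genes with each other. Differences are log2 fold changes from edgeR's quasi-likelihood test, mutant minus WT or later minus earlier, with the p adjusted by the Benjamini-Hochberg method over 8983 genes and called under 0.05. In bulk RNA, fewer cells of a type and less RNA per cell cannot be told apart. Where groups of 2 libraries are said not to overlap, this describes the libraries and is not a call. The label of the mutant was checked on stk-12 itself, whose log2 fold changes over the 4 times in order were -1.39, -2.03, -1.52 and -1.21, so its transcript was lower but not absent. The strains also differed at the mating type locus, since matA-1 had 0 reads in every mutant library. Every genotype difference below therefore compares these strains, and the effects of stk-12 and of other differences between them cannot be told apart. The summed level of 10 conidiation genes, none of them at 0 in any group, was 3783 to 3951 CPM in WT and 1660.4 to 1717 CPM in the mutant at 3d. It was 2776 to 3547 CPM in WT and 4273 to 4375 CPM in the mutant at 5d. At 12h it was 795 to 806 CPM in WT and 691 to 810 CPM in the mutant. At 1d it was 1006 to 1131 CPM in WT and 860 to 895 CPM in the mutant. Most of the sum at 1d was ccg-1 (898 and 807 CPM in WT, 701 and 746 CPM in the mutant). At 1d eas held 25.7 and 18.5 CPM in WT against 2.58 and 2.47 CPM in the mutant. Scaled by library totals alone, 1 of the 10 genes was higher and 4 were lower in the mutant at 1d. Of the 10 genes, 0 were higher and 8 lower in the mutant at 3d (median log2 fold change -1.22), against 29.4 and 30% of all genes. At 5d, 3 were higher and 5 lower (median -1.13), against 30.6 and 30.9% of all genes. The sum at 5d was carried by ccg-1 (2057 and 1791 CPM in WT, 2626 and 2592 CPM in the mutant) and con-8 (525 and 374 CPM against 1528 and 1449 CPM), which were higher in the mutant together with fl. The genes eas, con-6, con-10, con-13 and rca-1 were lower there, with log2 fold changes from -3.82 to -1.96. The part of conidiating cells in any result below was not tested.

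At 12h, 2 members were higher and 5 lower in the mutant, when 13% of all genes tested were called, 6.53% higher and 6.51% lower. At 1d, 10 were higher and 21 lower, against 37.1% of all genes called, 19.1% higher and 18% lower. At 3d the counts were 24 and 25, against 59.5% of all genes, 29.4% higher and 30% lower. At 5d they were 25 and 23, against 61.6% of all genes, 30.6% higher and 30.9% lower. As shares of the members, the calls at 3d and 5d were 68.1 and 66.7%, near those of all genes. Differences of at least 2-fold were found for 0, 1, 6 and 7 members at 12h, 1d, 3d and 5d, against 1.16, 4.31, 16.5 and 16.1% of all genes. The genotype difference was unequal over the 4 times in 62 of 72 members, against 77.5% of all genes. In 22 members the mutant was called higher at one time and lower at another, against 27.1% of all genes. The median log2 fold change of the members was -0.04, -0.08, -0.06 and 0.04 at 12h, 1d, 3d and 5d, and that of all genes was -0.03, 0.02, -0.02 and -0.01. Scaling by library totals alone shifted the median of all genes to 0.18 at 1d, -0.25 at 3d and -0.11 at 5d, and turned the split of the members to 17 higher and 8 lower at 1d and to 13 higher and 36 lower at 3d. Differences under about 0.3 on the log2 scale are read with that shift in view. Shares of all genes called are given here and below under TMM scaling only. Counts under library totals alone have no such share beside them. Leaving out either WT 1d replicate 1 or mutant 1d replicate 1 left 17 members called at 1d. At 12h, 3 were called without WT 12h replicate 1, 4 without mutant 12h replicate 1 and 2 without mutant 12h replicate 2.

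**Figure D1:**
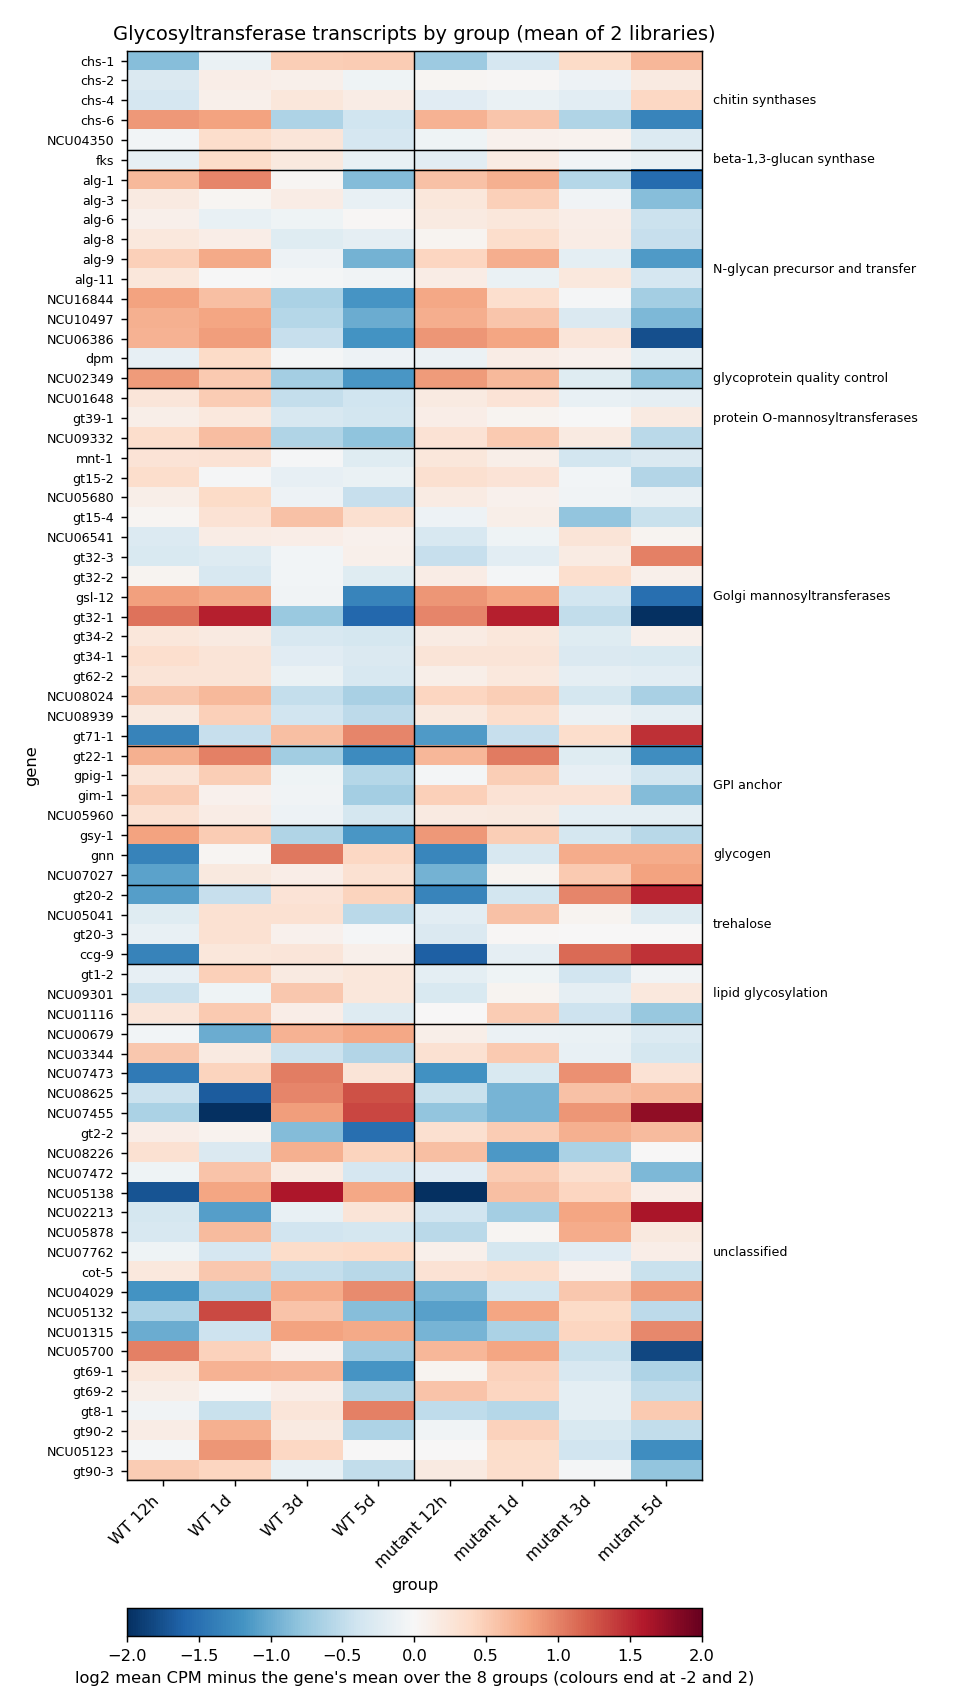
Each line is a tested glycosyltransferase gene, ordered by role class, and each column is a group, as the mean of its 2 libraries. Colour gives the log2 mean CPM minus the gene's mean over the 8 groups, with colours ending at -2 and 2, and gt2-2 is blue in WT and red in the mutant at 3d and 5d.

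The largest genotype difference of any member at 3d and at 5d was that of gt2-2 (NCU00911), which is annotated as the polysaccharide synthase Cps1p. gt2-2 held 1433 and 1511 CPM in the WT libraries at 12h, 1359 and 1453 at 1d, 743 and 731 at 3d and 456 and 484 at 5d. In the mutant, gt2-2 held 1639 and 1709.8 CPM at 12h, 1929.8 and 1895 at 1d, 2187 and 2223 at 3d and 2079.9 and 2067 at 5d. The WT level was lower at each time after 1d, while no mutant library was below 1639 CPM. The groups did not overlap at any of the 4 times, though the difference at 12h did not pass the test. The difference was 0.19 ± 0.0664 (SE, adjusted p = 0.0793) at 12h, 0.44 ± 0.0666 (SE, adjusted p = 0.000122) at 1d, 1.58 ± 0.0680 (SE, adjusted p = 5.84e-12) at 3d and 2.14 ± 0.0694 (SE, adjusted p = 3.82e-13) at 5d. It was unequal over the times (adjusted p = 8.26e-11). In WT, gt2-2 fell by 0.93 on the log2 scale from 1d to 3d and by 0.65 from 3d to 5d. In the mutant it rose by 0.19 from 12h to 1d and by 0.21 from 1d to 3d. The first call ended without either mutant 12h library, either mutant 1d library or mutant 3d replicate 1, and the second without mutant 1d replicate 2 or mutant 3d replicate 2.

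All 4 genes of trehalose metabolism rose from 12h to 1d in both strains, and 3 of the 4 were higher in the mutant at 5d. From 12h to 1d, 26.1% of all genes rose in WT and 21.4% in the mutant. Trehalose is a disaccharide that fungi keep as a reserve and as a protectant. Of the 4 members, 2 were higher and 1 lower in the mutant at 3d, against 29.4 and 30% of all genes. At 5d, 3 were higher and 0 lower, against 30.6 and 30.9%. With library totals alone the counts were 2 and 2 at 3d and again 3 and 0 at 5d. gt20-2 (NCU00793) is annotated as a trehalose phosphate synthase, which makes the phosphorylated precursor. gt20-2 held 235 and 223 CPM in the WT libraries at 12h, 357 and 354 at 1d, 598 and 592 at 3d and 639 and 699.6 at 5d. In the mutant, gt20-2 held 202 and 191 CPM at 12h, 394 and 364 at 1d, 961 and 976 at 3d and 1389.7 and 1442 at 5d. From 3d on every mutant library was above every WT library. The difference was 0.70 ± 0.0695 (SE, adjusted p = 2.16e-07) at 3d and 1.08 ± 0.0699 (SE, adjusted p = 1.78e-09) at 5d. At 12h it was -0.22, a call that ended when any of 12 libraries was left out, under library totals alone, with no filter on low counts and with a replicate block. ccg-9 (NCU09559) is a clock-controlled gene known as a trehalose synthase. ccg-9 held 97.2 and 120.4 CPM in the WT libraries at 12h, 339 and 304 at 1d, 337 and 313 at 3d and 314 and 277 at 5d. In the mutant, ccg-9 held 94.0 and 84.1 CPM at 12h, 241 and 243 at 1d, 572 and 639.8 at 3d and 728 and 777 at 5d. At 1d both mutant libraries lay below the WT libraries, and at 3d and 5d both lay above. The difference was -0.41 ± 0.101 (SE, adjusted p = 0.00517) at 1d, 0.90 ± 0.101 (SE, adjusted p = 9.49e-07) at 3d and 1.35 ± 0.102 (SE, adjusted p = 1.12e-08) at 5d. Without WT 1d replicate 1, the call at 1d ended.

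The other members of the trehalose class had smaller genotype differences at 3d and 5d. NCU05041 has a trehalose-phosphatase product, the enzyme that removes the phosphate. Its log2 fold changes were 0.28 at 1d, -0.25 at 3d and 0.29 at 5d, so the call at 3d was in the opposite direction to gt20-2; it ended without mutant 3d replicate 1. gt20-3, another trehalose phosphate synthase, was lower in the mutant at 1d (-0.28), but not with library totals alone, and its values at 3d and 5d (-0.08 and 0.03) did not pass the test. In the partner list, the trehalases tre-1 and tre-2, which split trehalose, were lower in the mutant at 3d (-0.85 and -0.67), and tre-2 was higher at 5d (0.59), where tre-1 did not pass the test (0.15).

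**Figure D2:**
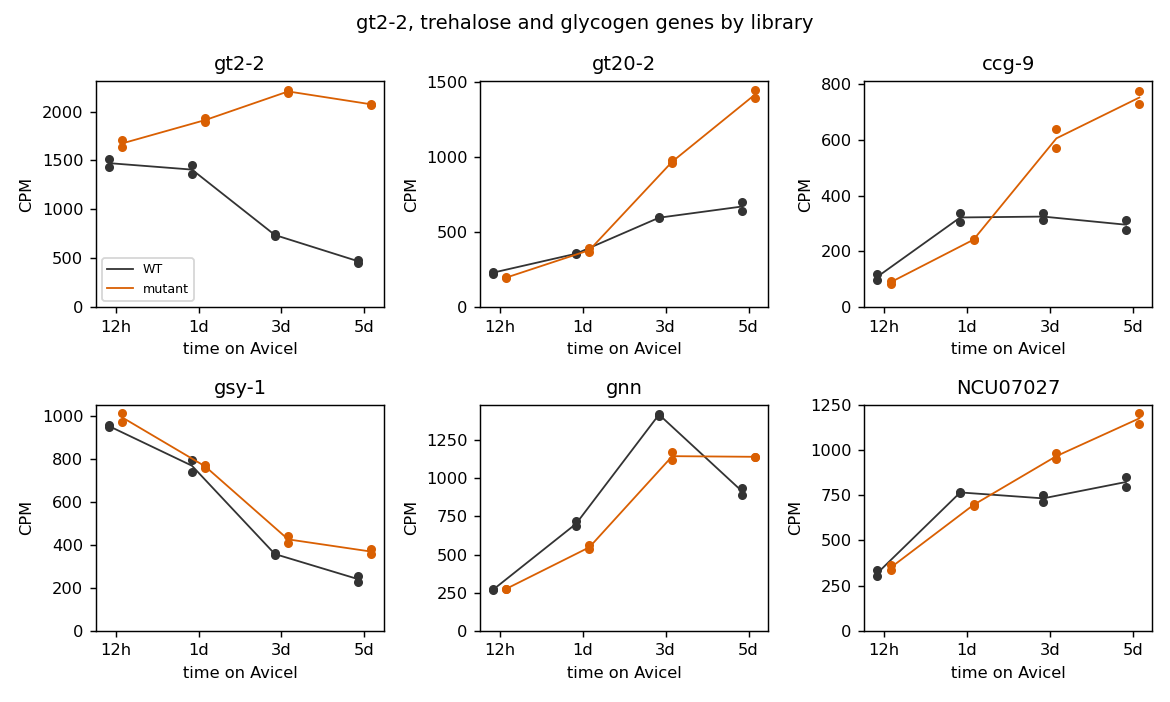
Panels show gt2-2, 2 trehalose genes and 3 glycogen genes, with the time of harvest on the x axis and CPM on the y axis. Points are libraries and lines join the group means of WT and mutant. In gt2-2, gt20-2 and ccg-9 the mutant lies above WT at 3d and 5d, and gnn is lower in the mutant at 1d and 3d and higher at 5d.

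Among the glycogen genes, the synthase and the primer moved in opposite directions from 12h to 3d. All 3 members were higher in the mutant at 5d, against 30.6% of all genes. gsy-1 (NCU06687) encodes glycogen synthase, which lengthens the chains, gnn (NCU06698) glycogenin, which primes them, and NCU07027 glycogen phosphorylase, which breaks them down. gsy-1 held 959 and 947 CPM in the WT libraries at 12h, 741 and 796 at 1d, 354 and 361 at 3d and 254 and 228 at 5d. In the mutant, gsy-1 held 1013 and 973 CPM at 12h, 771 and 759.7 at 1d, 409.9 and 441 at 3d and 379 and 358 at 5d. gsy-1 was lower at each later time in both strains, though its mutant step from 3d to 5d ended as a call with library totals alone (-0.03) and without mutant 3d replicate 2 or mutant 5d replicate 2. Its difference was 0.25 ± 0.0719 (SE, adjusted p = 0.0064) at 3d and 0.61 ± 0.0724 (SE, adjusted p = 2.1e-06) at 5d. By library totals alone the value at 3d was 0.02 and was not called, nor was it without mutant 3d replicate 2. gnn held 268 and 272 CPM in the WT libraries at 12h, 687 and 717 at 1d, 1425 and 1412 at 3d and 938 and 894 at 5d. In the mutant, gnn held 277 and 275 CPM at 12h, 534 and 562 at 1d, 1173 and 1118 at 3d and 1140.4 and 1142 at 5d. gnn thus rose between 12h and 3d in both strains, and fell between 3d and 5d in WT (-0.63). In the mutant the step from 3d to 5d did not pass the test (-0.01). The groups did not overlap at any of the 4 times, though at 12h they nearly met and the difference did not pass the test. The difference was -0.36 ± 0.0641 (SE, adjusted p = 0.000512) at 1d, -0.31 ± 0.0636 (SE, adjusted p = 0.000548) at 3d and 0.32 ± 0.0637 (SE, adjusted p = 0.000438) at 5d. NCU07027 held 300.5 and 337 CPM in the WT libraries at 12h, 769.8 and 761 at 1d, 751 and 714 at 3d and 853 and 793 at 5d. In the mutant, NCU07027 held 336 and 362 CPM at 12h, 691 and 702 at 1d, 948 and 985 at 3d and 1145 and 1205 at 5d. Its levels were higher in both mutant libraries than in both WT libraries at 3d and 5d. The difference was 0.40 ± 0.0736 (SE, adjusted p = 0.000197) at 3d and 0.51 ± 0.0737 (SE, adjusted p = 1.76e-05) at 5d. In the partner list, NCU00743, a glycogen debranching enzyme, was lower in the mutant at 1d (-0.43) and higher at 3d (0.50) and 5d (0.39), and gh13-9, the branching enzyme, was lower at 1d (-0.24) and higher at 5d (0.40).

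The N-glycan genes build a lipid-linked oligosaccharide and hand it to proteins. In WT, 7 of the 10 fell from 1d to 3d (3 rose and 5 fell with library totals alone), 6 fell from 3d to 5d, and 0 rose at either step, where 37.1 and 27.5% of all genes fell. In the mutant, 6 fell and 1 rose from 1d to 3d, and all 10 fell from 3d to 5d, where 37 and 31.2% of all genes fell. The median genotype difference was 0.23 at 3d, with 6 higher and 1 lower (29.4 and 30% of all genes). It was -0.27 at 5d, with 1 higher and 7 lower (30.6 and 30.9% of all genes). Under library totals the split at 3d was 2 higher and 3 lower, and that at 5d was 1 and 8, so the direction at 3d depended on the scaling. NCU10497, of family GT66, encodes the catalytic STT3 subunit of the oligosaccharyltransferase, which transfers the finished glycan. NCU10497 held 418 and 391 CPM in the WT libraries at 12h, 431 and 423 at 1d, 175 and 158 at 3d and 127 and 122 at 5d. In the mutant, NCU10497 held 407 and 411 CPM at 12h, 355 and 370.4 at 1d, 202 and 205 at 3d and 131 and 134 at 5d. It fell between 1d and 3d in WT (-1.36) and in the mutant (-0.83), and the groups did not overlap at 1d, 3d or 5d. At 5d the difference did not pass the test. The difference was -0.23 ± 0.0657 (SE, adjusted p = 0.0113) at 1d and 0.29 ± 0.0663 (SE, adjusted p = 0.00119) at 3d, and with library totals alone neither was called (-0.08 and 0.07). The 1d call ended without WT 1d replicate 1 or mutant 1d replicate 1. 

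NCU06386 and NCU16844, placed among the enzymes that supply or finish the glycan, differed between the strains at 3d and 5d. NCU06386 encodes the synthase of dolichyl-phosphate glucose, the donor of the terminal glucoses. NCU06386 held 83.2 and 78.6 CPM in the WT libraries at 12h, 86.4 and 92.0 at 1d, 38.0 and 34.2 at 3d and 21.1 and 22.3 at 5d. In the mutant, NCU06386 held 91.4 and 91.7 CPM at 12h, 81.9 and 89.7 at 1d, 58.9 and 58.8 at 3d and 13.7 and 15.7 at 5d. Its mutant libraries lay above WT at 3d and below at 5d. The difference was 0.70 ± 0.0786 (SE, adjusted p = 9.09e-07) at 3d and -0.55 ± 0.0911 (SE, adjusted p = 7.14e-05) at 5d. NCU16844 is of family GT59, which in yeast holds Alg10, the enzyme of the last glucose. NCU16844 held 129 and 131 CPM in the WT libraries at 12h, 117 and 111 at 1d, 47.5 and 49.2 at 3d and 34.9 and 31.2 at 5d. In the mutant, NCU16844 held 119 and 136 CPM at 12h, 100.5 and 89.7 at 1d, 74.2 and 73.5 at 3d and 49.8 and 43.8 at 5d. The groups did not overlap from 1d on, with the mutant lower at 1d and higher at 3d and 5d. The difference was -0.26 ± 0.0842 (SE, adjusted p = 0.023) at 1d, 0.61 ± 0.0856 (SE, adjusted p = 1.23e-05) at 3d and 0.50 ± 0.0898 (SE, adjusted p = 0.000172) at 5d. The call at 1d ended with library totals alone and without WT 1d replicate 1, WT 1d replicate 2 or mutant 1d replicate 2. The mannosyltransferase alg-1, which adds the first mannose, was lower in the mutant at 3d (-0.61) and 5d (-0.66). A later one, alg-3, was lower at 5d (-0.71), did not pass the test at 3d (-0.22) and was higher at 1d (0.42, a call that ended without WT 1d replicate 1 or mutant 1d replicate 1). 

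The partner subunits of the oligosaccharyltransferase, a list of 5 genes with no GT entry, were all higher in the mutant at 3d. Their median log2 fold change was 0.47, where 29.4% of all genes were higher. All 5 were still higher with library totals alone. At 5d, 2 were higher and 1 lower (1 and 2 with library totals alone), and at 1d 0 were higher and 1 lower (1 and 0 with library totals alone). The values at 3d ran from 0.41 (NCU02541) to 0.54 (NCU00669). For glycoprotein quality control, NCU02349 encodes the UDP-glucose:glycoprotein glucosyltransferase, which tags misfolded glycoproteins in the endoplasmic reticulum. It held 25.7 and 24.1 CPM in WT against 33.5 and 33.9 in the mutant at 3d, and 16.4 and 19.3 against 22.1 and 23.7 at 5d. The groups did not overlap at either time. The differences were 0.44 ± 0.0851 (SE, adjusted p = 0.000329) and 0.36 ± 0.0907 (SE, adjusted p = 0.00272), and the second was not called without WT 5d replicate 1.

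Protein O-mannosyltransferases attach the first mannose to serine and threonine of secreted proteins. All 3 members were higher in the mutant at 3d and at 5d, with median log2 fold changes of 0.33 and 0.27. Of all genes, 29.4 and 30.6% were higher at those times. With library totals alone 1 of the 3 was higher at 3d and 2 at 5d. NCU09332 held 246 and 236 CPM in the WT libraries at 12h, 290.2 and 286 at 1d, 123 and 126 at 3d and 108 and 107 at 5d. In the mutant, NCU09332 held 235 and 227 CPM at 12h, 267 and 276 at 1d, 221 and 205 at 3d and 128 and 131 at 5d. From 1d to 3d NCU09332 fell by 1.21 on the log2 scale in WT and by 0.35 in the mutant, and at 3d and 5d both mutant libraries were above both WT libraries. The difference was 0.78 ± 0.0599 (SE, adjusted p = 9.24e-09) at 3d and 0.27 ± 0.0604 (SE, adjusted p = 0.00127) at 5d. gt39-1 held 221 and 229.7 CPM in WT and 325 and 334 CPM in the mutant at 5d, again without overlap. Its difference was 0.55 ± 0.0653 (SE, adjusted p = 2.5e-06) there and 0.31 at 3d, and the call at 3d ended with library totals alone. NCU01648 was lower in the mutant at 1d (-0.24) and higher at 3d (0.33) and 5d (0.23), and none of the 3 calls remained with library totals alone.

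**Figure D3:**
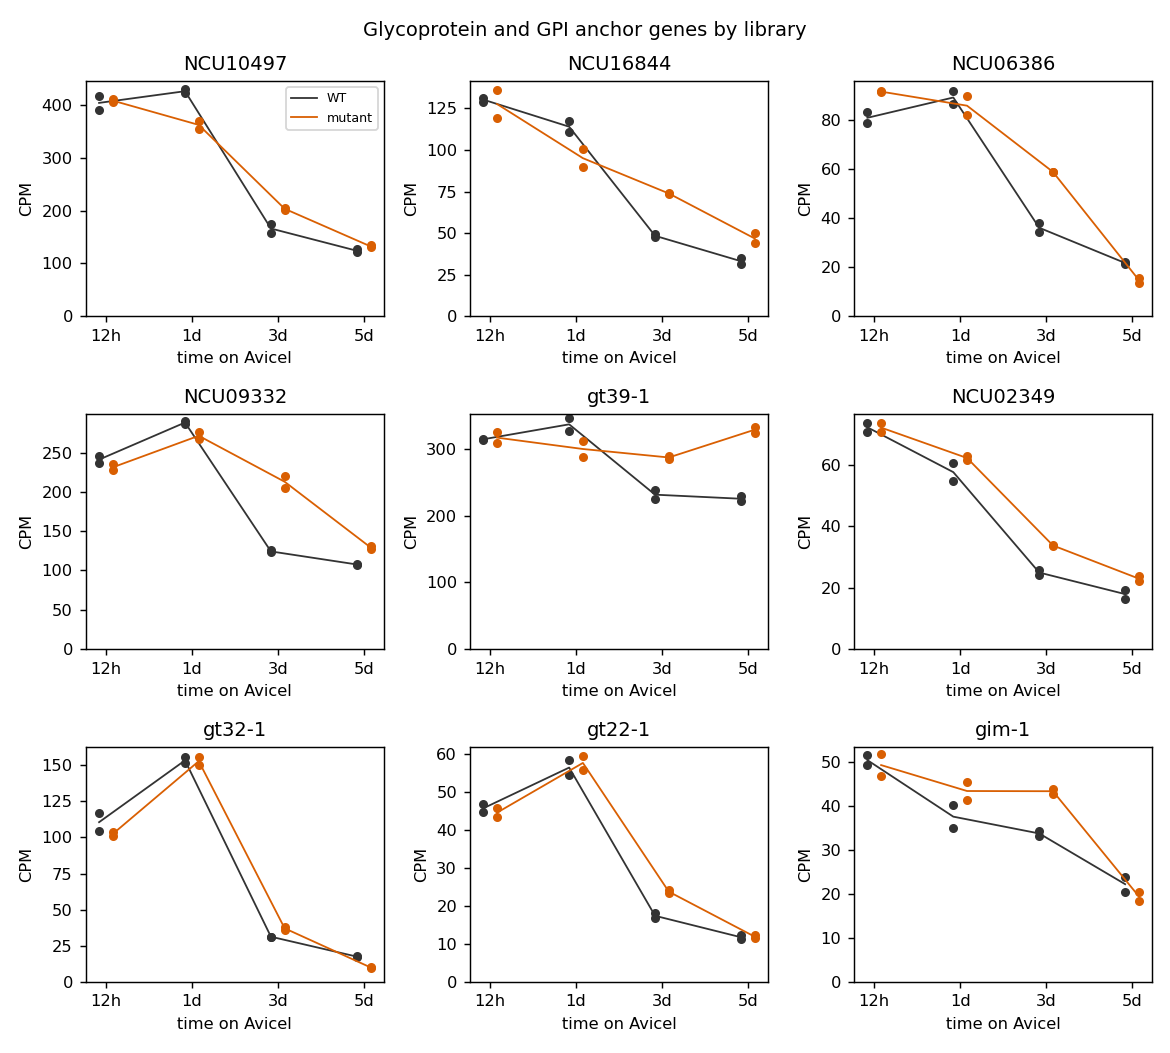
Panels show genes of N-glycan assembly, quality control, O-mannosylation, Golgi mannosylation and GPI anchors, with the time of harvest on the x axis and CPM on the y axis. Points are libraries and lines join group means. Most of these genes fall after 1d in both strains, and NCU09332 and NCU06386 lie higher in the mutant at 3d.

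Golgi mannosyltransferases extend N- and O-linked chains on their way to the wall. Of 15, 4 were higher and 4 lower in the mutant at 3d, against 29.4 and 30% of all genes. At 5d, 6 were higher and 3 lower, against 30.6 and 30.9%. Scaled by library totals alone, the counts were 1 and 7 at 3d and 6 and 5 at 5d. gt32-1, an Och1-type gene (in yeast, Och1 starts the outer mannan chain), had the widest range over groups of the Golgi members. gt32-1 held 104 and 117 CPM in the WT libraries at 12h, 151 and 156 at 1d, 31.3 and 31.2 at 3d and 17.3 and 17.6 at 5d. In the mutant, gt32-1 held 104 and 101 CPM at 12h, 156 and 150.0 at 1d, 35.8 and 38.3 at 3d and 10.1 and 9.78 at 5d. Its level fell at both steps after 1d in both strains, and at 5d the mutant libraries lay below WT. The difference was -0.81 ± 0.0862 (SE, adjusted p = 6.65e-07) at 5d. At 3d it was 0.25, which was not a call under library totals alone or without mutant 3d replicate 2. Of the other GT32 members, gsl-12 was lower in the mutant at 3d (-0.30, a call that ended without WT 3d replicate 2 or mutant 3d replicate 1), and its value at 5d (-0.20) did not pass the test but was called under library totals alone (-0.30). gt32-3 was higher in the mutant at 5d (0.90), as was gt32-2 at 1d, 3d and 5d (0.28, 0.39 and 0.35; the 1d call ended without mutant 1d replicate 1). gt15-4 was the Golgi member with a difference of at least 2-fold. gt15-4 held 29.1 and 28.5 CPM in the WT libraries at 12h, 37.8 and 30.2 at 1d, 40.9 and 42.4 at 3d and 36.5 and 33.4 at 5d. In the mutant, gt15-4 held 24.9 and 27.0 CPM at 12h, 29.2 and 31.0 at 1d, 16.7 and 15.7 at 3d and 21.4 and 19.4 at 5d. Both mutant libraries were below both WT libraries at 3d and 5d. The difference was -1.36 ± 0.103 (SE, adjusted p = 7.06e-09) at 3d and -0.78 ± 0.101 (SE, adjusted p = 6.21e-06) at 5d. gt71-1, of family GT71, rose at each of the 3 steps in both strains, and was higher in the mutant at 5d (0.49). At 3d it held 51.2 and 54.4 CPM in WT and 41.6 and 47.2 CPM in the mutant, and was lower there (-0.25), a call that ended without WT 3d replicate 2, WT 5d replicate 2 or mutant 3d replicate 1.

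For the GPI anchor, which tethers wall proteins to the membrane, 2 of 4 genes were higher in the mutant at 3d. This compares with 29.4% of all genes, and 0 of the 4 were called at the other times. By library totals alone 1 was higher and 2 lower at 3d. gt22-1, annotated as GPI mannosyltransferase 3, held 16.7 and 18.0 CPM in WT and 24.1 and 23.3 CPM in the mutant at 3d, where the libraries of the strains did not overlap. The difference was 0.45 ± 0.0867 (SE, adjusted p = 0.000294). gim-1, the other, had a value of 0.36, which with library totals alone was 0.13 and not called.

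The wall synthases had genotype differences under 0.5 on the log2 scale at every time, except chs-6 at 5d, under TMM scaling. Chitin synthases link N-acetylglucosamine into the rigid fibres of the wall, and the beta-1,3-glucan synthase makes its main glucan. chs-1 held 202 and 204 CPM in the WT libraries at 12h, 330.4 and 334 at 1d, 509 and 512 at 3d and 492 and 545 at 5d. In the mutant, chs-1 held 219 and 222 CPM at 12h, 273 and 303 at 1d, 467 and 489 at 3d and 572 and 586 at 5d. chs-1, the chitin synthase of highest level per gene length (99.5 RPKM), rose in both strains between 12h and 3d. Its groups did not overlap at any time, with the mutant lower at 1d and 3d and higher at 12h and 5d. The differences at 12h, 3d and 5d did not pass the test. Its difference at 1d, -0.21 ± 0.0702 (SE, adjusted p = 0.031), was not called with library totals alone or without WT 1d replicate 1, WT 1d replicate 2 or mutant 1d replicate 1. chs-4 was lower in the mutant at 3d and its libraries did not overlap there, with 179.6 and 194 CPM in WT and 138 and 139 CPM in the mutant. The difference was -0.44 ± 0.0670 (SE, adjusted p = 3.29e-05) at 3d, and the value at 5d was 0.27, called with TMM scaling but not with library totals alone. NCU04350, annotated as chitin synthase 6, was lower in the mutant at 1d (-0.26) and 3d (-0.18). The call at 1d ended with library totals alone and without WT 1d replicate 1, WT 1d replicate 2 or mutant 1d replicate 1, and that at 3d without any of 13. chs-6 was the lowest of the class per gene length (4.65 RPKM). At 5d it held 9.60 and 9.09 CPM in WT and 4.47 and 5.42 CPM in the mutant, a difference of -0.91 ± 0.133 (SE, adjusted p = 2.08e-05). At 12h, chs-2 was the 1 member of the class called (0.32), and without WT 12h replicate 1 or either mutant 12h library it was not. The counts of the class were 0 higher and 3 lower at 1d, 0 and 2 at 3d, and 2 and 1 at 5d. With library totals alone they were 0 and 0, 0 and 4, and 0 and 1. All genes gave 19.1 and 18%, 29.4 and 30%, and 30.6 and 30.9% at these times under TMM scaling. fks held 420.0 and 409 CPM in the WT libraries at 12h, 628 and 578 at 1d, 524 and 546 at 3d and 400.2 and 444 at 5d. In the mutant, fks held 421 and 381 CPM at 12h, 525 and 517 at 1d, 454 and 448 at 3d and 417 and 422 at 5d. The groups of fks overlapped at 12h and 5d but not at 1d and 3d. Its differences at 1d and 3d (-0.21 and -0.25) were called, and with library totals alone the one at 1d was not. It also ended without WT 1d replicate 1 or either mutant 1d library. The call at 3d ended without WT 3d replicate 2 or mutant 3d replicate 1.

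A list of 6 chitin synthase genes and helpers without a CAZy entry was also followed. Of these, 3 were lower at 3d, against 30% of all genes, and 3 were higher at 5d, against 30.6%. By library totals alone 5 were lower at 3d, and 2 were higher and 1 lower at 5d. csc-1, an export chaperone of chitin synthase, was the lowest at 3d (-0.62), and chs-3 was higher at 5d (0.50).

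**Figure D4:**
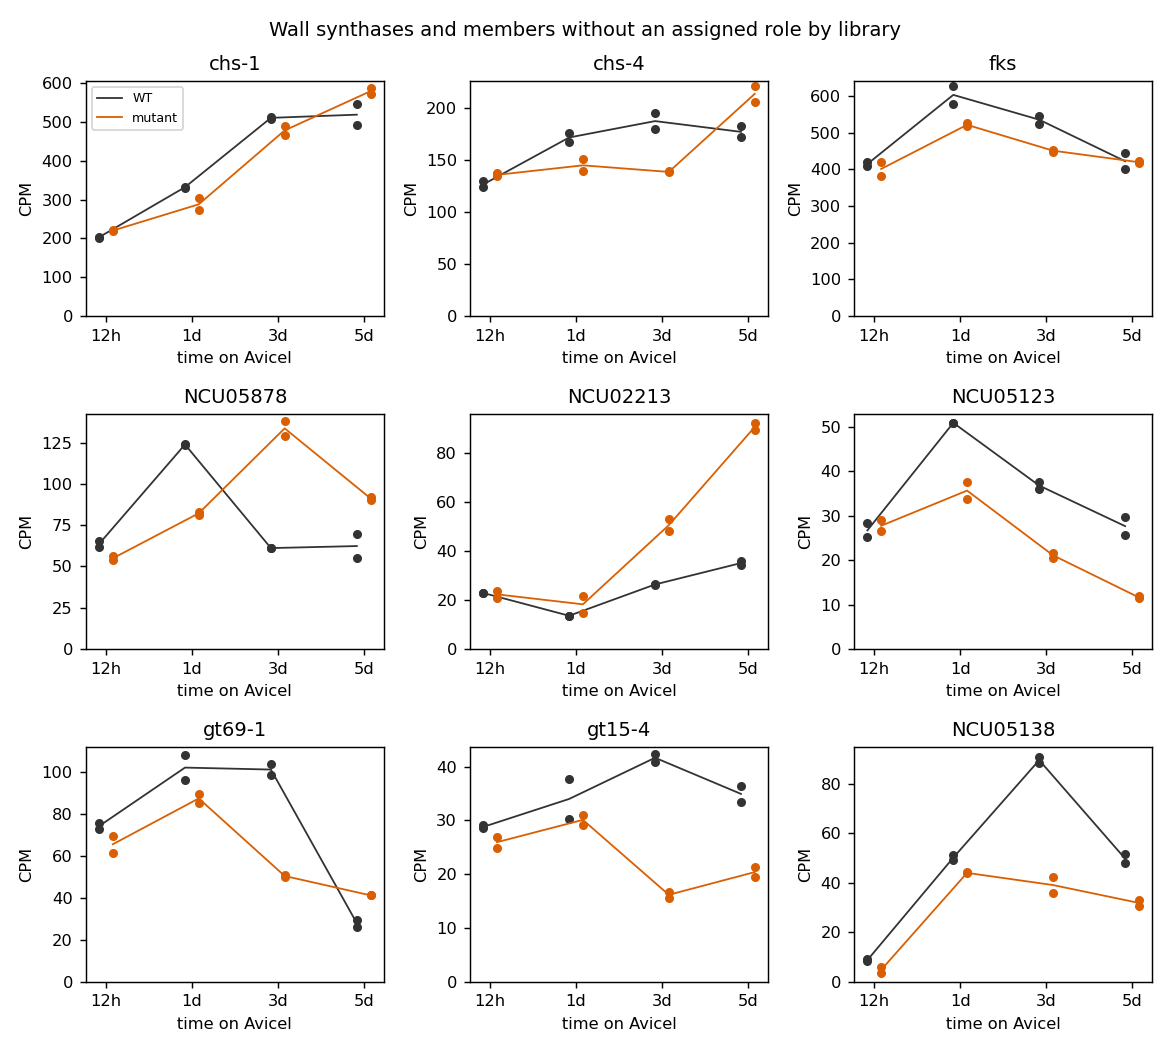
Panels show chitin synthases, the beta-1,3-glucan synthase fks and genes of GT15, GT25, GT31, GT69 and GT90 that differed at 3d or 5d, with the time of harvest on the x axis and CPM on the y axis. Points are libraries and lines join group means. chs-1 and fks run close together in the strains, and NCU05138, NCU05123 and gt15-4 lie lower in the mutant at 3d and 5d.

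The lipid glycosylation class held 2 UDP-glucose:sterol transferases of GT1 and a ceramide glucosyltransferase of GT21. All 3 members were lower in the mutant at 3d (median -0.57), against 30% of all genes. With library totals alone all 3 were again lower (median -0.80). That scaling lowered the median of all genes at 3d as well, so the second count is no separate check. NCU09301 held 179 and 185 CPM in WT and 106 and 115 CPM in the mutant at 3d, without overlap. The difference was -0.72 ± 0.0611 (SE, adjusted p = 3.11e-08) at 3d and -0.01 at 5d. gt1-2 was lower at 1d (-0.57) and 3d (-0.57) and at 5d (-0.30), the last of which ended without WT 5d replicate 1, WT 5d replicate 2 or mutant 5d replicate 2. 

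Of the 23 unclassified members tested, gt2-2 among them, 4 were higher and 12 lower in the mutant at 3d. At 5d, 6 were higher and 10 lower. Among all genes, 29.4% were higher and 30% lower at 3d, and 30.6 and 30.9% at 5d. NCU02213, of family GT31, is annotated as a hypothetical protein. NCU02213 held 22.9 and 22.8 CPM in the WT libraries at 12h, 13.5 and 13.6 at 1d, 26.3 and 26.4 at 3d and 35.9 and 34.2 at 5d. In the mutant, NCU02213 held 23.7 and 20.9 CPM at 12h, 21.6 and 14.8 at 1d, 48.2 and 52.9 at 3d and 92.1 and 89.2 at 5d. At 3d and 5d both mutant libraries were above the WT libraries. The difference was 0.94 ± 0.115 (SE, adjusted p = 2.52e-06) at 3d and 1.37 ± 0.112 (SE, adjusted p = 2.96e-08) at 5d. It was also higher at 1d (0.42), a call that ended without WT 1d replicate 1, WT 1d replicate 2 or mutant 1d replicate 1. NCU05878, of the same family, was lower in the mutant at 1d and higher at 3d and 5d. NCU05878 held 65.4 and 62.0 CPM in the WT libraries at 12h, 124 and 124 at 1d, 61.2 and 61.1 at 3d and 55.3 and 69.5 at 5d. In the mutant, NCU05878 held 56.2 and 53.7 CPM at 12h, 83.3 and 81.2 at 1d, 138 and 129 at 3d and 90.2 and 92.3 at 5d. It peaked at 1d in WT and at 3d in the mutant. The libraries of the strains did not overlap at any of the 4 times, though the difference at 12h did not pass the test. The difference was -0.59 ± 0.0837 (SE, adjusted p = 7.28e-05) at 1d, 1.13 ± 0.0828 (SE, adjusted p = 4.89e-09) at 3d and 0.55 ± 0.0834 (SE, adjusted p = 3.19e-05) at 5d.

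Other members differed in either direction. NCU05138 held 8.42 and 9.09 CPM in the WT libraries at 12h, 51.1 and 49.1 at 1d, 88.3 and 90.6 at 3d and 48.0 and 51.4 at 5d. In the mutant, NCU05138 held 3.67 and 5.93 CPM at 12h, 44.2 and 43.7 at 1d, 42.1 and 36.0 at 3d and 30.6 and 33.0 at 5d. This GT25 gene ran highest in WT at 3d, and the mutant libraries lay below WT at all 4 times, with a value at 1d (-0.19) that did not pass the test. The difference was -0.87 ± 0.164 (SE, adjusted p = 0.00217) at 12h, -1.20 ± 0.111 (SE, adjusted p = 9.33e-08) at 3d and -0.64 ± 0.114 (SE, adjusted p = 0.000141) at 5d. NCU08226 of GT2 was lower at 1d, 3d and 5d (-0.86, -1.34 and -0.45), and the GT90 gene NCU05123, with a capsule-associated product name, was lower at the same times (-0.51, -0.80 and -1.25). gt69-1, named for a polysaccharide export role, held 104 and 98.8 CPM in WT and 50.9 and 50.1 in the mutant at 3d, and 29.7 and 26.2 CPM against 41.3 and 41.2 CPM at 5d. It was lower in the mutant at 3d and higher at 5d, and the groups overlapped at neither time. The differences were -1.004 ± 0.0790 (SE, adjusted p = 1.2e-08) and 0.56 ± 0.0851 (SE, adjusted p = 3.19e-05). NCU05132, of GT4, was the single member called at all 4 times (-0.47, -0.54, -0.19 and 0.33), and its 3d call ended without any of WT 3d replicate 1, WT 3d replicate 2, mutant 3d replicate 1 or mutant 3d replicate 2. At low levels, NCU07455 of GT17 held 0.633 and 0.654 CPM in WT and 2.19 and 1.55 CPM in the mutant at 1d, the 1 difference of at least 2-fold at that time. It was 1.52 ± 0.403 (SE, adjusted p = 0.00798), and ended as a call without WT 1d replicate 1 or mutant 1d replicate 1. NCU07455 was also called higher in the mutant at 5d, a call that ended when any of 6 libraries was left out. NCU00679 of GT1 and NCU05700, a mannosyl-3-phosphoglycerate synthase of GT55, had low levels and were lower in the mutant at 5d (-1.05 and -1.12). The latter call ended without WT 5d replicate 2. NCU00679 was also lower at 3d (-0.84) and higher at 1d (0.89), and the 1d call ended without WT 1d replicate 1, WT 1d replicate 2 or mutant 1d replicate 2. The neighbouring genes NCU07473 and NCU07472 on chromosome I (assembly NC12) did not share a pattern: the former was lower in the mutant at 1d (-0.74), the latter at 5d (-0.56). The other adjacent pair, NCU07762 and gsl-12 on chromosome V, was lower in the mutant at 3d in both genes (-0.58 and -0.30), and NCU07762 was lower at 5d as well (-0.27).

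Over time in WT, 35 members rose and 15 fell from 12h to 1d, against 56.8% of all genes called, 26.1% up and 30.7% down. From 1d to 3d, 19 rose and 37 fell (79% of all genes, 41.9% up and 37.1% down), and from 3d to 5d, 5 rose and 37 fell (54.6%, 27.1% up and 27.5% down). In the mutant, 30 rose and 8 fell from 12h to 1d (40.7% of all genes, 21.4% up and 19.3% down), and 20 rose and 39 fell from 1d to 3d (72.6%, 35.6% up and 37% down). From 3d to 5d in the mutant, 19 rose and 36 fell (62.9%, 31.7% up and 31.2% down). Steps of at least 2-fold were called for 8, 19 and 3 members in WT, against 13.1, 40 and 11.3% of all genes, and for 4, 14 and 8 in the mutant, against 7.77, 27.6 and 16.5%. Of the steps after 1d, 2 depended on scaling: with library totals alone, 36 members rose and 19 fell in WT from 1d to 3d, where the median of all genes moved from 0.11 to 0.59, and 24 rose and 25 fell in the mutant from 3d to 5d, where it moved from 0.01 to 0.19. The same scaling left 6 up and 31 down in WT from 3d to 5d and 21 up and 34 down in the mutant from 1d to 3d. The highest group mean of a member was in WT at 1d for 23 of 72 (31.9%), against 14% of all genes, and with library totals alone for 7 (9.72%), against 6.41%. The ratio of the highest to the lowest group mean had a median of 2.59 for the members and 2.97 for all genes tested. It was highest for NCU07455 (18.9), NCU05138 (18.6) and gt32-1 (15.4), and lowest for chs-2 (1.38).

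A list of 13 genes of nucleotide sugar supply makes the donors that the members use. Of these, 0 were higher and 8 lower in the mutant at 1d, against 19.1 and 18% of all genes. At 3d, 7 were higher and 1 lower, against 29.4 and 30%. At 5d, 8 were higher and 4 lower, against 30.6 and 30.9%. Under library totals the counts were 1 and 4 at 1d, 3 and 5 at 3d, and 3 and 5 at 5d, so the directions at 3d and 5d depended on the scaling. NCU06003, a mannose-1-phosphate guanyltransferase, was lower at 1d (-0.39) and higher at 3d (0.56). chi-3, an N-acetylglucosamine-phosphate mutase, was higher at 3d (0.58) and 5d (0.31), and sec53, the phosphomannomutase gene, was lower at 1d, 3d and 5d (-0.24, -0.38 and -0.50).

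**Figure D5:**
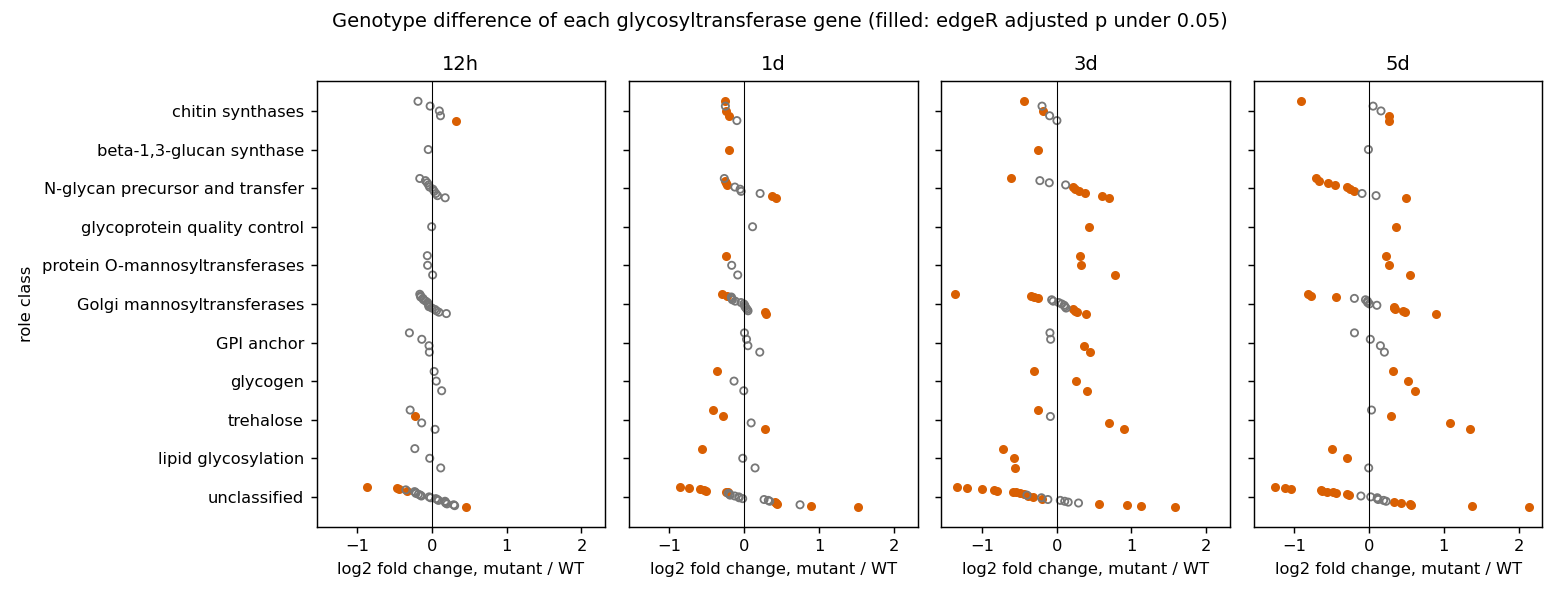
The genotype difference of each tested member is plotted by role class at 12h, 1d, 3d and 5d, on the log2 scale, mutant minus WT. Each point is a gene, and filled points passed the test. Most points lie within 1 of 0, and gt2-2 stands above all others at 3d and 5d.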

How the data were processed

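RNA sequencing of Neurospora crassa mycelia was read from the deposited table, which held, per the file headers, a read count per gene and an RPKM value for each of 16 libraries. Per the submitters' processing notes the tools were TopHat2 (2.0.8b) and HTSeq (0.5.4p3). The build and the strand used in counting are not given in the sources used here, which leaves the values of genes that overlap, run antisense or have a near copy uncertain. The deposited RPKM values were checked: 100% of 146267 values above 0 matched the counts within a relative tolerance of 0.001. They were used only to compare levels between genes. The columns of 2 libraries ended in 6 entries that named no gene, all left out: 5 were unlabelled counts, together 6.86% of reads in WT 3d replicate 2 and 4.43% in mutant 5d replicate 1, and 1 equalled the sum over genes.

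Tests ran in edgeR 4.0.16, with limma 3.58.1 beneath it and DESeq2 1.42.0 as an alternative, under R 4.3.3; matplotlib 3.10.9, NumPy 2.4.6 and pandas 2.3.3 under Python 3.11.15 drew the figures. filterByExpr passed 8983 genes and dropped 747. TMM factors ran from 0.84 to 1.25. A single quasi-likelihood model with group means took in every library. It left 8 residual degrees of freedom, and its common biological coefficient of variation was 0.0685. Adjusted p-values are Benjamini-Hochberg values over the genes tested, called under 0.05. The SE is the absolute log2 fold change over the square root of the F statistic. The model was run on simulated counts in which 200 genes were changed in the mutant 3d libraries only. Far more genes were called in the data, so that run cannot test the choice of scaling. Groups and replicate numbers come from the labels. No pair of libraries of a group agreed within sampling noise (chi-square per degree of freedom 3.91 to 22.2), so each was counted separately. Depth varied between libraries, and genes with few reads have wide errors.

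The members and lists were chosen with earlier results of these data known. The rule for named genes took every member of the wall synthase, glycogen, trehalose, O-mannosyltransferase and quality control classes, the 10 members with the largest called log2 fold change in each genotype contrast and time step, and in each other class the member of highest level and that with the smallest p of the F test. Genes of the partner lists are named as examples, chosen after their values were seen. The closing section gives the effect of DESeq2 size factors, library totals alone, no filter, the DESeq2 test, a replicate block and leaving out each library. The conidiation list is a marker list of the other cell type. Gene positions serve here only to find adjacent members.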

Additional observations from a re-analysis of the deposited data

Results flagged for a closer look

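The genotype difference was unequal over the 4 times in 62 of 72 tested glycosyltransferase genes, by edgeR's F test over the 16 libraries. This was 86.1% of the tested members, against 77.5% of all genes tested. The 22 members below were picked because the mutant was called higher at one time and lower at another in the same libraries. The p values that follow therefore restate that choice. Calls in both directions were found in 27.1% of all genes tested. Of the 22, 15 were called in both directions under library totals alone, and 15 to 22 when 1 library was left out, the lowest without WT 1d replicate 1. With each library left out in turn, 8 were called in both directions every time. These counts were added after the data were seen. Among wall and reserve genes, the adjusted p of the F test was 2.24e-05 for chs-4, 1.53e-05 for gnn, 3.3e-08 for gt20-2, 8.1e-05 for NCU05041 and 2.56e-08 for ccg-9. For genes of N-glycan assembly it was 0.00012 for alg-3, 4.76e-05 for alg-6, 0.000598 for alg-8, 0.000916 for alg-11, 1.73e-05 for NCU16844, 0.000869 for NCU10497 and 1.2e-06 for NCU06386. Among O-mannosyl and Golgi mannosyltransferases it was 7.53e-05 for NCU01648, 0.000617 for gt15-2, 0.000832 for NCU05680, 4.17e-06 for gt32-1 and 0.000482 for gt71-1. Among unclassified members it was 0.000361 for NCU00679, 1.02e-08 for NCU05878, 7.59e-06 for NCU05132, 8.13e-08 for gt69-1 and 0.00251 for gt69-2.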

How the results depend on the processing

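For the log2 fold changes of the named genes in each comparison, 8 results fell short of the threshold under DESeq2 size factors and 14 under the DESeq2 test. With no filter on low counts 4 fell short, and with a replicate block 6. No direction turned under these 4 settings. Results that stayed called or uncalled numbered 508, 502, 516 and 513 in that order. Under library totals alone, 43 fell short and 26 passed anew. Scaling by library totals alone turned gt32-3 at 3d to -0.0108 on the log2 scale. For the WT step from 1d to 3d it turned chs-2 to 0.46, NCU04350 to 0.39, fks to 0.32, gim-1 to 0.33, NCU07027 to 0.43, gt20-3 to 0.27, gt1-2 to 0.20, NCU07472 to 0.0825, gt69-1 to 0.48 and NCU05123 to 0.0199. For the mutant step from 3d to 5d it turned NCU01648 to 0.15 and gnn to 0.17. The all-gene median moves with this scaling, and the cause was not tested further. Without WT 5d replicate 1, NCU07473 at 5d was -0.29 (edgeR adjusted p = 0.0193), and over all libraries left out it ran from -0.29 to 0.41.

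Leaving out each library in turn, the members called ran from 2 to 9 at 12h, 17 to 33 at 1d, 38 to 50 at 3d and 43 to 49 at 5d. For the WT steps they ran from 45 to 52, 52 to 57 and 34 to 43, and for the mutant steps from 30 to 40, 53 to 60 and 47 to 56. The count with an unequal genotype difference ran from 56 to 61. The deviation of replicate 1 from its group mean was compared over 28 pairs of groups. The correlations ran from -0.137 to 0.091, and 0 were over 0.1. Such values cannot tell whether libraries of one number were handled together, which the labels do not say. With a replicate block, 6, 31, 47 and 49 members were called at 12h, 1d, 3d and 5d, 50, 57 and 41 at the WT steps, 37, 58 and 55 at the mutant steps, and 62 for the unequal difference. With 2 libraries per group, small differences are known only to the spread of these libraries, and genes of a few CPM, such as NCU00679, NCU08625 and NCU07455, have wide errors.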
